A study of Bos taurus with 4 samples.

Results

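The mitochondrial ribosomal proteins are the proteins, encoded in the nucleus, that together with mitochondrial ribosomal RNA build the ribosome inside mitochondria. Members were all genes whose symbol in the annotation of the array begins with *MRPL* (large subunit) or *MRPS* (small subunit) followed by a digit, and each gene was read from its brightest probe. This gave 65 genes, 40 *MRPL* and 25 *MRPS*, of the 12545 named genes on the array. RefSeq lists 78 bovine genes with such symbols.

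The samples were inner cell masses (ICMs) dissected from bovine blastocysts at day 9 after fertilization in vitro, and the study asked how a medium made for human naïve pluripotent cells affects them. Embryos of the first group were moved into naïve human stem cell medium (NHSM) after 4 days of culture. NHSM is KO-DMEM with 20% knock-out serum replacement, insulin, LIF (20 ng/ml), bFGF (8 ng/ml) and TGFβ1 (1 ng/ml). It also holds the inhibitors PD0325901 (MEK), CHIR99021 (GSK3), Go6983 (PKC), SP600125 (JNK) and SB203580 (p38). Embryos of the second group were moved at the same day into fresh synthetic oviduct fluid (SOF), in which both groups had been cultured until then. Each of 4 arrays carried RNA of 1 NHSM pool and 1 SOF pool of 11 to 24 ICMs, with the NHSM pool in Cy3 on arrays 1 and 3 and in Cy5 on arrays 2 and 4. The media differ in their basic medium, serum replacement, growth factors and inhibitors at once, so the part of any 1 ingredient cannot be told apart, and hand dissection leaves some trophectoderm, the outer layer of the embryo, with the ICM. Because RNA was taken from whole pools, fewer cells of a type and less RNA per cell cannot be told apart.

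The mitochondrial ribosome translates only the few proteins encoded by mitochondrial DNA, all of which are core subunits of the oxidative phosphorylation complexes. Its large subunit joins amino acids and its small subunit reads the mRNA. Part of its proteins have counterparts in bacterial ribosomes, while others are found only in mitochondria. In mammalian embryos the mitochondria are inherited from the oocyte, and the ribosomal proteins they need are imported from the cytosol.

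All libraries were of similar brightness, with a median probe signal of 122 to 143 on the scanner scale. The floor, a limit below which a spot was not told from background, was the 95th percentile of the signals of 2 control probes with many spots, taken for each dye of an array. Depending on the pool, 44.04% to 72.1% of the probes exceeded it with NHSM RNA and 48.8% to 67.3% with SOF RNA. Among the members, 62 of 65 were above the floor in all 8 pools, and *MRPS9*, *MRPS25* and *MRPL28* were above it in 3 of the 4 pools of each medium. Of the defining markers of the epiblast, the pluripotent cells of the ICM, 4 of 5 were measured, and *NANOG*, *SOX2* and *PRDM14* were above the floor in every pool, while *LIN28B* was below it in every pool. The marker left was *POU5F1*, which was not among the named genes in the annotation used here. *NANOG*, *SOX2* and *PRDM14* were lower in NHSM (log2 ratio -0.31, -0.32 and -0.32, adjusted p in limma 0.0243, 0.0230 and 0.0222). From these arrays the paper reports *SOX2* and *POU5F1* at similar levels. It reports a *NANOG* decrease under 1.5-fold that qRT-PCR did not reproduce. Of the hypoblast markers 4 of 5 were measured, and *GATA6* was lower in NHSM (-0.44). The others changed little, *GATA4* (-0.06), *SOX17* (-0.06) and *HNF4A* (0.05), and the last 2 were not above the floor in every pool. The signals of the measured epiblast markers summed to between 4251 and 5370 in the NHSM pools and between 5596 and 6238 in the SOF pools.

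Those mitochondrial ribosomal protein genes that changed were higher in NHSM ICMs. Of the 65 genes, 19 (29.2%) were called higher in NHSM, 0 were called lower, and 46 were not called. A gene was called when its log2 ratio of NHSM over SOF in limma, with the dye as a term, had a Benjamini-Hochberg adjusted p under 0.05 over all 12545 genes. By the same call 6.87% of all genes were higher and 6.91% were lower. Members were brighter than most genes, with a median mean log2 intensity of 10.08 against 7.92 for all genes. Among the 2252 genes within the middle 50% of the members' intensities, 12.3% were higher and 13.3% were lower. Among the 7802 genes above the floor in every pool, 10.2% were higher and 10.1% were lower. At an unadjusted p under 0.05, 32 members were higher and 1, *MRPL10*, was lower, against 12.4% and 12.99% of all genes. Normalization by the median of each array in place of loess gave 24 members higher and 0 lower, beside 7.57% of all genes higher and 4.11% lower.

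The changes were small. The called members lay between 1.23-fold and 1.64-fold higher, and only *MRPL18* passed the call together with at least 1.5-fold, which 1.23% of all genes did as higher and 1.36% as lower. The median log2 ratio of the 65 members was 0.17 (quartiles 0.05 and 0.33), against -0.02 for all genes. Of the members, 55 had a log2 ratio above 0 and 10 below. The ratio was above 0 on all 4 arrays for 28 members, beside 12.7% of all genes, and below 0 on all 4 for 1 member, *MRPS23*, beside 12.6%. For 18 members every NHSM pool lay above every SOF pool in its normalized level, beside 5.8% of all genes. Of these 18, 16 were called, and *MRPS12* (log2 ratio 0.22, adjusted p = 0.0725) and *MRPL11* (0.17, adjusted p = 0.149) were not.

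**Figure D1:**
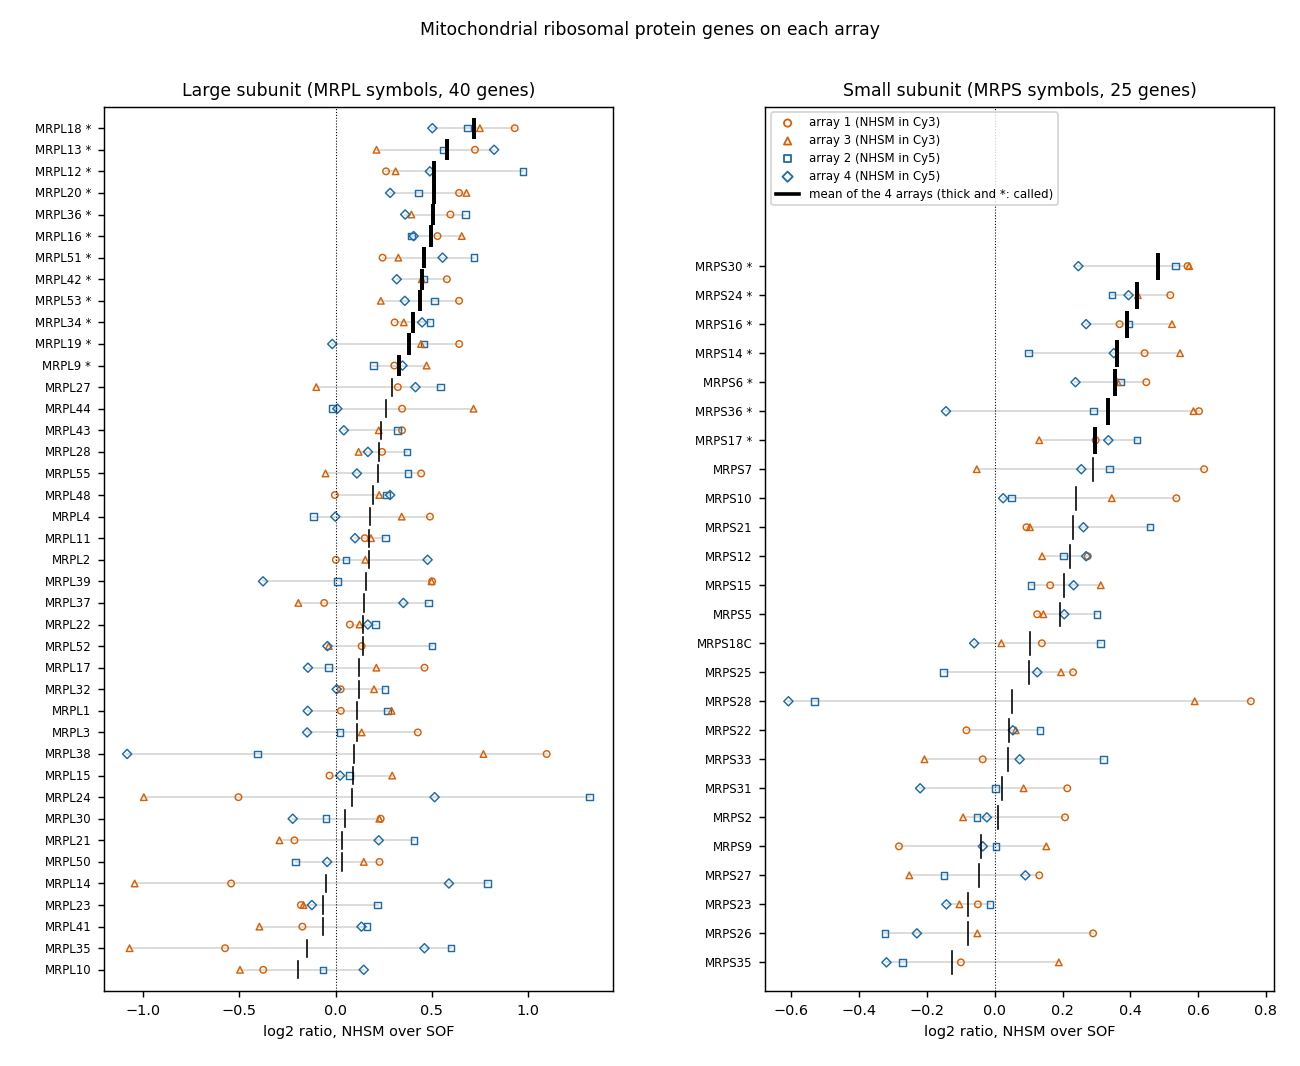
Log2 ratio of NHSM over SOF (x axis) of the 65 members on each of the 4 arrays, with large-subunit genes left and small-subunit genes right, ordered by their mean; symbols give the array, colours the dye of the NHSM pool, vertical strokes the mean of the arrays and asterisks a call. The 19 called members sit at the top, and the widest spreads belong to members whose ratio changes sign with the dye.

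*MRPL18*, the counterpart of the bacterial large-subunit protein that binds 5S rRNA, changed most. Its normalized log2 levels were 12.68, 12.52, 12.73 and 12.69 in the NHSM pools of arrays 1 to 4, against 11.75, 11.83, 11.98 and 12.19 in the SOF pools. All NHSM pools were above all SOF pools, and the gap was narrowest on array 4. The log2 ratios were 0.93, 0.69, 0.75 and 0.50, with a mean of 0.72 ± 0.07 (SE, n = 4 arrays) and an adjusted p of 0.00145. Here and in the values that follow, the SE is that of the limma fit. It was taken after the dye effect was removed, with the variance drawn toward that of all probes. It is therefore not the SE of the printed ratios, which can spread more widely. Its second probe gave 0.61 and was called too.

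Next were large-subunit proteins with bacterial counterparts. *MRPL13* had levels of 11.41, 11.45, 11.04 and 11.61 in the NHSM pools, against 10.69, 10.89, 10.83 and 10.78 in the SOF pools, which do not overlap. Its mean log2 ratio was 0.58 ± 0.10 (adjusted p = 0.00907), and array 3 gave the lowest ratio, 0.21. *MRPL12*, whose product forms the stalk that recruits translation factors and which in human cells also binds the mitochondrial RNA polymerase, had levels of 9.24, 9.44, 9.00 and 9.17 in the NHSM pools, against 8.98, 8.46, 8.69 and 8.68 in the SOF pools. The lowest NHSM pool lay just above the highest SOF pool, and array 2 stood out with a ratio of 0.97 against 0.26, 0.31 and 0.49 on arrays 1, 3 and 4. The mean was 0.51 ± 0.09 (adjusted p = 0.0106). This rise rests on 1 of its 6 probes, since the other 5 gave log2 ratios between -0.07 and 0.08 and none was called.

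*MRPL20*, which in bacteria is needed early in assembly of the large subunit, had log2 ratios of 0.64, 0.43, 0.68 and 0.28 on arrays 1 to 4, with a mean of 0.51 ± 0.07 (adjusted p = 0.0036). *MRPL36*, one of the smallest ribosomal proteins, had ratios of 0.60, 0.67, 0.39 and 0.36 and a mean of 0.51 ± 0.08 (adjusted p = 0.0069). *MRPL16*, which lies near the site of peptide bond formation, had ratios of 0.53, 0.39, 0.66 and 0.41 and a mean of 0.50 ± 0.07 (adjusted p = 0.00375). For these 3 genes all NHSM pools were above all SOF pools. *MRPL34* had the smallest spread over arrays among the called genes of the large subunit, with ratios of 0.31, 0.49, 0.36 and 0.45, a mean of 0.40 ± 0.06 (adjusted p = 0.00722), and a second probe that was called at 0.47. The second probes of *MRPL20* (0.40) and *MRPL36* (0.37) were also called.

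Of the large-subunit proteins without a bacterial counterpart, 3 were called. *MRPL51* had log2 ratios of 0.24, 0.72, 0.33 and 0.56, with a mean of 0.46 ± 0.07 (adjusted p = 0.00544), and *MRPL42* had ratios of 0.58, 0.46, 0.45 and 0.32, with a mean of 0.45 ± 0.07 (adjusted p = 0.00602). *MRPL53*, measured by 6 probes, had ratios of 0.64, 0.52, 0.24 and 0.36 and a mean of 0.44 ± 0.09 (adjusted p = 0.0151). The NHSM and SOF pools did not overlap for any of these 3 genes. Another 3 probes of *MRPL53* were called at 0.48, 0.46 and 0.39, while 2 more gave -0.01 and 0.04. The other probes of *MRPL51* (0.11 and 0.18) and of *MRPL42* (0.01, above the floor in only 2 NHSM and 1 SOF pools) were not called.

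**Figure D2:**
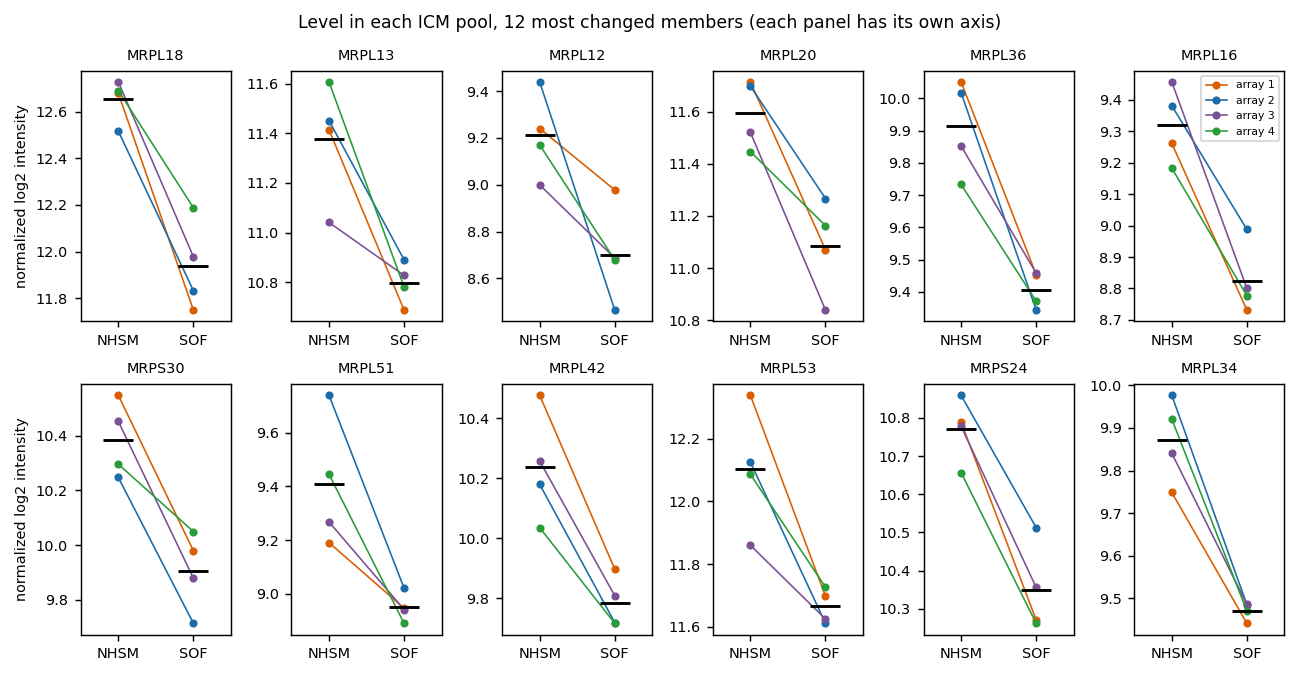
Normalized log2 intensity (y axis, a separate range in each panel) of the 12 most changed members in the NHSM pools (left) and SOF pools (right), with a line joining the pools of 1 array and a bar at the mean of the 4 pools. In every panel all NHSM points lie above all SOF points, by the widest margin for *MRPL18*.

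Of the small-subunit symbols, *MRPS30* changed most, although structures of the mammalian ribosome place its product in the large subunit. Its levels were 10.55, 10.25, 10.45 and 10.30 in the NHSM pools, against 9.98, 9.71, 9.88 and 10.05 in the SOF pools. The ratios were 0.57, 0.53, 0.57 and 0.25, with a mean of 0.48 ± 0.07 (adjusted p = 0.0062). Array 4 lay apart from the other arrays in these ratios, which still held the dye effect of this gene (-0.09). That effect lowers the ratio where NHSM was in Cy5, as on arrays 2 and 4. *MRPS24*, the counterpart of bacterial S3, which lines the path of the mRNA into the ribosome, had the smallest spread over arrays of all called members, with ratios of 0.52, 0.35, 0.42 and 0.39 and a mean of 0.42 ± 0.07 (adjusted p = 0.00646).

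The other called genes are named because their values were seen to pass, and not by the size rule. Of the small subunit they were *MRPS16* (0.39), *MRPS14* (0.36), *MRPS6* (0.35), *MRPS36* (0.33) and *MRPS17* (0.30), with adjusted p between 0.0107 and 0.0415. *MRPS16*, *MRPS14*, *MRPS6* and *MRPS17* are counterparts of bacterial small-subunit proteins, and their NHSM and SOF pools did not overlap. The call of *MRPS16* rests on 1 of its 3 probes. Another that was above the floor in every pool gave 0.0049, and the mean of its probes was 0.12 (adjusted p = 0.232). The mean of the probes also gave no call for *MRPS14* (0.17) and *MRPS6* (0.15). However, the other probe of *MRPS14* was below the floor in every pool. Of the other probes of *MRPS6*, 1 was above the floor in every pool and gave 0.22, and the rest were above it in at most 1 pool. *MRPS17* and *MRPS36* each lost the call under 5 of the 13 alternatives run. *MRPS36* is a ribosomal protein by name only, since its product belongs to the 2-oxoglutarate dehydrogenase complex of the citric acid cycle. Its ratios were 0.60, 0.29, 0.59 and -0.14, with only array 4 below 0. These ratios still held the dye effect of the gene (-0.26), which lowers the ratio where NHSM was in Cy5, as on arrays 2 and 4. Of the large subunit they were *MRPL19* (0.38, adjusted p = 0.0343) and *MRPL9* (0.33, adjusted p = 0.0208). *MRPL19* was near 0 on array 4 (-0.02), in a ratio that still held its dye effect (-0.16). *MRPL9* was higher on all 4 arrays while its NHSM and SOF levels overlapped between arrays. The other probes of *MRPL19* (0.39 and 0.12) and of *MRPL9* (0.08) were above the floor in every pool and were not called. With the mean of the probes neither gene was called (adjusted p in limma 0.0531 and 0.0511), and each lost the call under 4 of the 13 alternatives. In all, 17 of the 19 called members were above 0 on all 4 arrays.

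No member was called lower. *MRPL10*, whose bacterial counterpart anchors the stalk, had the lowest mean, -0.20 ± 0.07, with ratios of -0.38, -0.06, -0.50 and 0.15 and an adjusted p of 0.126. *MRPS35* followed at -0.13 (adjusted p = 0.365). *MRPS23* was below 0 on every array, but by little, with ratios of -0.05, -0.01, -0.10 and -0.14. *MRPS26*, among the small-subunit genes with the brightest probes, had ratios of 0.29, -0.32, -0.05 and -0.23 and a mean of -0.08 ± 0.08. Among the uncalled members with the highest means were *MRPL27* (0.30, adjusted p = 0.065), *MRPS7* (0.29, adjusted p = 0.141) and *MRPL44* (0.26, adjusted p = 0.0739). *MRPL27* and *MRPS7* were above 0 on all arrays but array 3. *MRPL44* was above 0.3 only on arrays 1 and 3, where NHSM was in Cy3.

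Dye moved several members more than the medium did. The dye effect, the part of the log2 ratio of Cy5 over Cy3 that stays the same whichever pool carries the dye, was over 0.5 in size for 5 members. *MRPL24*, the large-subunit gene with the brightest probe, had NHSM over SOF ratios of -0.50 and -0.997 with NHSM in Cy3 and of 1.32 and 0.52 with NHSM in Cy5, which gave a mean of 0.08 ± 0.14. *MRPL35*, *MRPL14*, *MRPS28* and *MRPL38* changed sign in the same manner, *MRPS28* and *MRPL38* with the opposite dye. *MRPS28*, the brightest small-subunit probe, had ratios of 0.76 and 0.59 with NHSM in Cy3 and of -0.53 and -0.61 with NHSM in Cy5, and a mean of 0.05 ± 0.07. Its spot was saturated in the NHSM pool of array 4, so that the ratio there is a lower bound, and without array 4 the mean was 0.07. None of the 5 was called, and a second probe of *MRPL35* was called higher at 0.42 while its brightest probe gave -0.15. Across the 65 members, the ratios of arrays with the same dye orientation correlated with r of 0.80 and 0.74, and those of opposite orientation with r between -0.26 and -0.14. These correlations are across genes, which are not replicates, and arrays of 1 orientation share the dye effect. Among all members the median size of the dye effect was 0.11.

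Genes of both subunits were among those called. Of the 40 large-subunit genes 12 were higher, with a median log2 ratio of 0.17, and of the 25 small-subunit genes 7 were higher, with a median of 0.19. The median of the large subunit was 0.25, 0.35, 0.22 and 0.17 on arrays 1 to 4, and that of the small subunit was 0.23, 0.13, 0.14 and 0.09. For all genes it was between -0.03 and 0.01. Large minus small was thus 0.02, 0.21, 0.08 and 0.08 on the single arrays and -0.02 for the medians of the means over arrays, so its sign depended on how the arrays were combined. With *MRPS30* counted in the large subunit and *MRPS36* in neither, the small-subunit median was 0.10 and the difference was 0.07.

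By descent, conserved members were called in 9 of 28 cases in the large subunit (median 0.17) and in 5 of 15 in the small subunit (median 0.23). Members found only in mitochondria were called in 3 of 12 cases in the large subunit (median 0.18) and in 2 of 10 in the small subunit (median 0.03). The 2 called genes of the last group were *MRPS30* and *MRPS36*, neither of which belongs to the small subunit by structure. The uncalled members of this group included *MRPS35*, *MRPS26*, *MRPS23* and *MRPS27*, all with means below 0. These counts are given as a description, beside 6.87% of all genes called higher, and the differences between the groups were not tested.

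**Figure D3:**
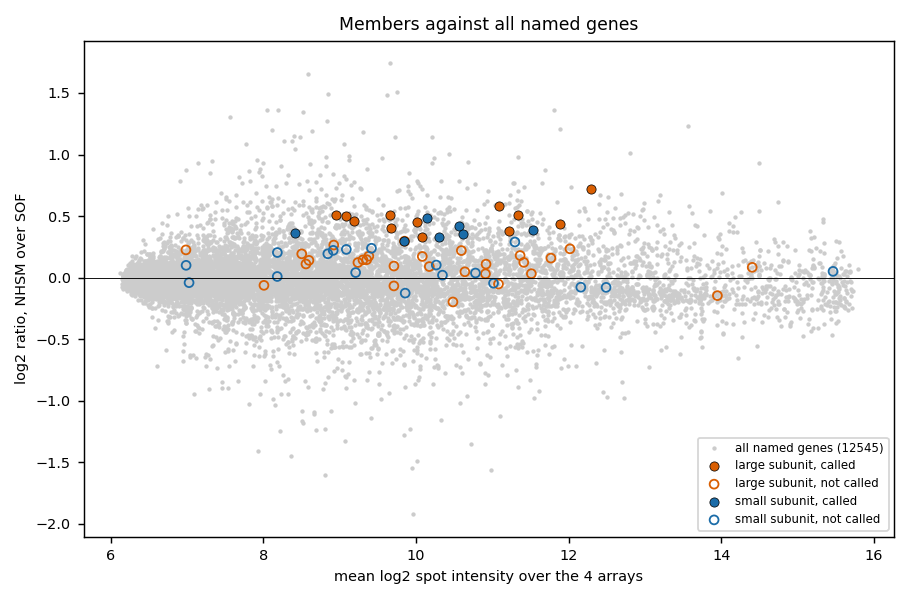
Log2 ratio of NHSM over SOF (y axis) against mean log2 spot intensity (x axis) for all 12545 named genes in grey and the members in colour, filled where called. Called members lie between 0.30 and 0.72 over a wide range of intensities, and the 3 brightest members, *MRPS28*, *MRPL24* and *MRPL35*, lie between -0.15 and 0.08.

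Brightness and ratio of the members were nearly unrelated. Across the 65 genes Pearson's r between mean log2 intensity and log2 ratio was -0.05, and across all genes it was -0.04. The members had 138 probes in all, 21 genes had a single probe, and the annotation does not place the probes within the transcripts. Of the 27 further probes of called members, 17 were above the floor in every pool, 14 of these had a ratio above 0, 7 were called higher over all probes, and 0 were called lower. Another 4 members whose brightest probe was not called had a probe that was called higher, namely *MRPL35*, *MRPL43*, *MRPL44* and *MRPS10*. Of the 19 called members, 5 rest on a single probe.

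The genes are spread over 25 chromosomes in the RefSeq annotation, and the 19 called members lie on 14 of them, at most 3 on 1 chromosome (*MRPL36*, *MRPS30* and *MRPS36* on chromosome 20). Chromosome 11 held most members, 8, of which *MRPL53* and *MRPL19* were called. Many members stand close to another gene, and 27 had a protein-coding neighbour within 1000 bases. Of 26 such neighbours measured, 2 were higher and 1 was lower, with a median log2 ratio of -0.03. One of them, *TCP1*, a subunit of the cytosolic chaperonin, lies beside *MRPL18* and was higher at 0.38 (adjusted p = 0.0151). Of the 6 measured neighbours of called members, *TCP1* was the only one called.

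Beside the all-gene shares of 6.87% higher and 6.91% lower, genes of the other steps of mitochondrial gene expression were called as follows. Of 7 mitoribosomal proteins that the array lists under other names, 0 were called in either direction, and their median was -0.09. They included *DAP3* of the small subunit (-0.14) and the genes now named *MRPL57* (-0.30, adjusted p = 0.071) and *MRPL58* (0.19, adjusted p = 0.293), which the array lists by older symbols and which the rule therefore left out. Of 14 genes for ribosome assembly and rRNA modification, 0 were higher and 2 were lower, the pseudouridine synthase gene *RPUSD3* (-0.37) and the helicase gene *DDX28* (-0.35). Of 11 translation factors, *PDF*, which removes the formyl group from new proteins, was higher (0.28), and *OXA1L*, which inserts them into the inner membrane, was lower (-0.32). The median of these 11 was 0.15.

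Of 13 mitochondrial aminoacyl-tRNA synthetase and related genes, 0 were higher and 2 were lower, *WARS2* (-0.55) and *AARS2* (-0.25), which charge the tRNAs for tryptophan and alanine. Of 13 genes for mitochondrial transcription and RNA processing, only *FASTKD1* was higher (0.50) and 0 were lower. The RNA polymerase gene *POLRMT* was at -0.04 and *LRPPRC*, which stabilizes mitochondrial mRNAs, at 0.21, and neither was called.

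**Figure D4:**
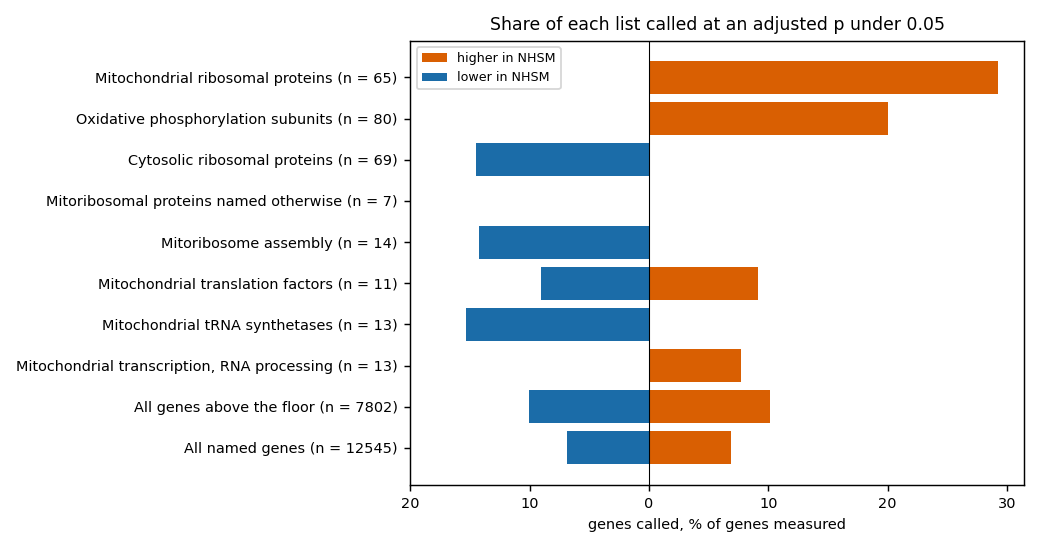
Genes called higher (right) or lower (left) in NHSM, as a percentage of the genes measured in each list (x axis); n is the number of genes measured. The members reach 29.2% higher and 0% lower, against 6.87% and 6.91% of all named genes.

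Nuclear genes of the oxidative phosphorylation complexes, whose other subunits the mitochondrial ribosome makes, included 16 of 80 that were higher (20.0%) and 0 that were lower, with a median of 0.10. *NDUFB5* of complex I had ratios of 0.78, 0.65, 0.51 and 0.37 on arrays 1 to 4 and a mean of 0.58 ± 0.08, *ATP5MK* of the ATP synthase had a mean of 0.54 ± 0.08, and *COX7C* of cytochrome c oxidase had a mean of 0.50 ± 0.12. The ratios of *COX7C* varied, with 0.05 on array 1 and 0.82 on array 2. Of 69 genes for cytosolic ribosomal proteins, which build the ribosome outside mitochondria, 0 were higher and 10 were lower (14.5%), with a median of -0.12. Of all genes 6.87% were higher and 6.91% lower, and of those as bright as the members 12.3% and 13.3%. Most cytosolic ribosomal genes were brighter still, and no share was taken at their intensities. *RPS9* had a mean of -0.45 ± 0.09, *RPL23* of -0.43 ± 0.11 and *RPL11* of -0.41 ± 0.07, and *RPL11* was the most even, with ratios between -0.47 and -0.34.

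**Figure D5:**
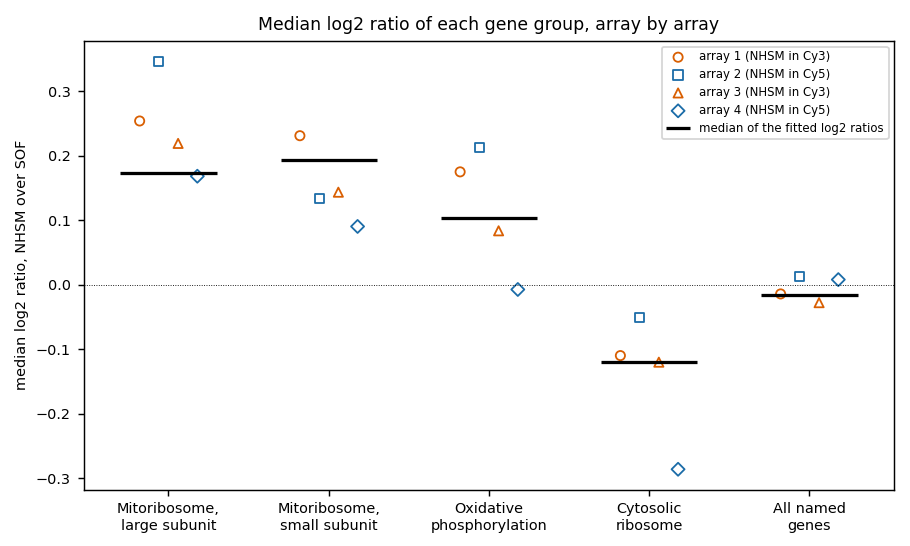
Median log2 ratio of NHSM over SOF (y axis) of 5 gene groups on each array, with symbols for the array, colours for the dye of the NHSM pool and a bar at the median of the means over arrays. Both mitoribosomal subunits are above 0 and the cytosolic ribosome is below 0 on every array, while oxidative phosphorylation lies at -0.01 on array 4.

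Markers of other cells the pools could hold moved as follows, and their part in the results was not tested. Of the trophectoderm markers, 6 of 9 were measured, 5 were above the floor in all pools, *GATA2* (-0.35) and *TFAP2A* (-0.46) were lower in NHSM, and 0 were higher. Their signals summed to between 51371 and 70003 in the NHSM pools and between 61590 and 79929 in the SOF pools, which overlap. Of the cumulus and granulosa markers, 5 of 8 were measured, *FSHR* was higher (0.44) and *AMH* was lower (-0.32), and the summed signals, 49061 to 62428 with NHSM and 49105 to 88117 with SOF, overlapped. Of the 3 blood and immune markers, 0 were called, and *CD3E* and *HBB* were below the floor in most pools.

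The number of members called was lowest, 12, without the pair of pools of array 2, beside 3.41% of all genes higher. The median log2 ratio of the 65 members was then 0.16, against 0.17 with all arrays. Without array 4, 16 members were called, beside 3.89% of all genes higher. With the log2 ratios that the authors deposited in place of the scanner values the number was 29, beside 10.1% of all genes higher. Those ratios were already corrected for dye bias and were fitted without a dye term, so values and model both changed. Under each of the 13 alternatives run, 0 members were called lower, and 10 members were called higher under all 13, namely *MRPL13*, *MRPL16*, *MRPL18*, *MRPL20*, *MRPL34*, *MRPL36*, *MRPL42*, *MRPL51*, *MRPS24* and *MRPS30*.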

How the data were processed

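Total RNA of 4 NHSM and 4 SOF pools was compared on 4 two-colour Agilent bovine V2 arrays. Groups and dyes came from the sample labels. The authors amplified and labelled the RNA, scanned the slides and quantified spots with ImaGene. The deposited scanner files give, before any normalization, a mean signal intensity and a local background intensity for every spot. A deposited table holds log2 ratios (Cy5 over Cy3), which the authors made by loess normalization and correction of gene-specific dye bias. It served as an alternative, and its columns ran in the direction of the ratio of channel 1 over channel 2 of their own array, with medians between -0.0089 and 0.0110.

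Of 45220 spots per array, 1567 controls were left out of the tests, and 43653 gene probes remained. Mean intensities were normalized by loess within arrays without background correction, and channel levels also between arrays, in limma 3.58.1 (R 4.3.3). The model held a dye term and a medium term, which left 2 residual degrees of freedom, and the empirical Bayes step added 5.33. The log2 ratios pair the pools of 1 array. Precision is limited by having 4 arrays. Of the 27952 probes with a symbol, 25823 had a current symbol in RefSeq (ARS-UCD2.0), 1831 were updated by synonym and 298 kept theirs. The fit was also run on simulated arrays with known changes and with noise drawn separately for each probe. Such arrays hold no noise shared between genes, so they do not test counts over a gene family.

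The members and all lists were chosen with earlier results of these data known. Named members were those called with 1.5-fold, then the others called by size up to 12 in each direction, the 2 brightest of each subunit, and *MRPS30* and *MRPS36* for their place. Other lists were named by up to 3 called genes with the largest change. Genes named besides these were chosen after their values were seen. Protein and promoter sequences were not analysed here. Alternatives changed the dye term, normalization, background correction, pairing, variance trend, probe choice, adjustment, subunit assignment and the arrays included.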

Additional observations from a re-analysis of the deposited data

Results flagged for a closer look

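Of 25 results whose 4 array values were checked for a value apart from the others, 1 was found. The log2 ratio of *MRPS30* was 0.25 on array 4 (0.247), against 0.57, 0.53 and 0.57 on arrays 1, 2 and 3. The gap to the nearest of the others, as a share of the whole range, was above Dixon's 95% critical value for 4 samples. Chance alone marks about 1 in 20 such groups. The ratios checked for *MRPS30* still held its dye effect (-0.09), and the check was not run after its removal.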

How the results depend on the processing

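Under the 13 alternatives the members called higher numbered between 12 and 29, and 0 were lower in any. The deposited log2 ratios, fitted without a dye term, gave 29. Leaving out 1 array gave 12 to 23, with the lowest count without array 2. Counts at 1.5-fold were 3 with median centring, 2 with the deposited ratios, and 1 to 3 with 1 array left out. With 1 array left out the large-subunit median was 0.144 to 0.257, the small-subunit median 0.122 to 0.196, and large minus small -0.0252 to 0.0612. The small-subunit median was 0.103 when a gene's probes were averaged, and also with *MRPS30* in the large subunit and *MRPS36* in neither, where the difference was 0.0720. Without the pairing by array, 13 members were higher (all genes 2.83%), and without a dye term 14 (all genes 3.99%), beside 6.87% of all genes in the fit reported. The 9 called members that lost the call under 1 or more alternatives were *MRPL9*, *MRPL12*, *MRPL19*, *MRPL53*, *MRPS6*, *MRPS14*, *MRPS16*, *MRPS17* and *MRPS36*. *MRPL12* was at 0.0762 (adjusted p = 0.481 in limma) with the mean of its probes. Uncalled members changed sign, *MRPL35* (0.137) and *MRPS26* (0.0289) with the mean of all probes, and with 1 array left out *MRPL24* (-0.118 to 0.285) and *MRPS26* (-0.164 to 0.00648). The cause of these changes was not tested. *MRPS9*, *MRPS25* and *MRPL28* lay near the floor, which limits what their ratios can show.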
